A study of Mus musculus with 3 samples.

Results

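Malat1, Neat1 and 5 genes for proteins of the paraspeckle, Sfpq, Nono, Pspc1, Tardbp and Hnrnpk, were followed in RNA from the cytosolic fraction of mouse macrophages. The 7 genes were taken by their symbols out of 55536 annotated genes, and all 7 had a mean of at least 100 counts over the libraries, as did 10348 genes in all. Together the 7 genes have 89 annotated transcripts. The macrophages were primary cells of the strain C57BL/6J, described in the labels as bone-marrow-derived, and had received lipid A, the part of bacterial lipopolysaccharide that the receptor TLR4 recognises, at 100 ng/ml for 25 minutes. Each of the 3 libraries started from 1 µg of RNA depleted of ribosomal RNA, and the labels call them biological replicates 1 to 3 of this single group. Age and sex of the animals are recorded as not collected, and all 3 libraries cite the same donor record, so the spread between them is that of 3 preparations and may not include differences between animals. No unstimulated cells and no nuclear or whole-cell RNA were analysed here, so the values are levels in cytosolic RNA and differences between replicates, without a test between conditions.

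Malat1 and Neat1 are long noncoding RNAs made from neighbouring genes, and both are known as RNAs kept in the nucleus. Malat1 gathers in nuclear speckles, bodies rich in splicing factors, and the long form of Neat1 is the scaffold on which paraspeckles assemble, whereas the short form alone does not build them. SFPQ, NONO and PSPC1 form dimers of a shared protein family that bind Neat1. TDP-43, the product of Tardbp, and hnRNP K are RNA-binding proteins that take part in choosing between the short and the long form of Neat1.

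Replicate 1 had 52956907 expected counts on annotated genes, replicate 2 had 43547422 and replicate 3 had 38608503. A value of 3 counts corresponds to 0.0567, 0.0689 and 0.0777 CPM (counts scaled to a fixed total per library). Of the 7 macrophage markers, all 7 were at 1 TPM or more in every library (TPM is the level per transcript length within a library), with a sum between 5190 and 8227 TPM. Of 21 markers of other cell types 2 were, S100a8 and S100a9, and 5 had a rounded count of 0 in every library. Small RNAs of the annotated class misc_RNA held 62.9 to 68.6% of all TPM, which lowers the TPM of every other gene, so differences between replicates are given on CPM after TMM scaling (a factor per library that brings most genes to the same level).

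Malat1 was the most abundant of the 7 genes. Its gene lies on chromosome 19 of mm10, 5795690 to 5802672, on the minus strand. It stood at 392 TPM in replicate 1, 1144 TPM in replicate 2 and 374 TPM in replicate 3, a mean of 637 ± 439 TPM (SD, n = 3). Among 223 long noncoding RNA genes with a mean of 1 TPM or more it was second, after Rmrp. Replicate 2 lay far above the other two, which were close to each other, and without replicate 2 the mean was 383.0 TPM.

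Neat1 lies 22035 bases away on the same strand, at 5824708 to 5845478. It stood at 32.4, 106.5 and 37.3 TPM in replicates 1, 2 and 3, a mean of 58.7 ± 41.5 TPM, and was ninth among the same 223 genes. Here too the value of replicate 2 stood alone at the top, and the mean without it was 34.8 TPM. Malat1 was higher than Neat1 by 12.1-fold, 10.7-fold and 10.01-fold in replicates 1, 2 and 3, on TPM plus a pseudocount of 0.1, a mean log2 difference of 3.45 ± 0.14. On counts the mean log2 difference was 3.07 ± 0.35, and the ratio of the full-length transcripts alone, given with the transcripts of Malat1, varied more.

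Among the protein genes, Hnrnpk was highest, with 76.0, 84.9 and 93.97 TPM (mean 84.97 ± 8.97). Nono followed with 30.5, 29.7 and 40.9 TPM (33.7 ± 6.24), Sfpq with 23.8, 32.6 and 31.3 TPM (29.3 ± 4.73), and Tardbp with 24.4, 25.8 and 32.0 TPM (27.4 ± 4.04). Pspc1 was lowest, with 2.74, 3.22 and 3.64 TPM (3.20 ± 0.45), from 716, 699 and 573 counts. Neat1, Nono, Sfpq and Tardbp overlapped with their neighbours in this order, and Hnrnpk was above Neat1 in 2 of 3 libraries only. The gaps that no library crossed were those of Malat1 above Hnrnpk and of Tardbp above Pspc1. Among protein-coding genes by mean TPM, Hnrnpk ranked 459, Nono 1181, Sfpq 1382, Tardbp 1470 and Pspc1 7206, where 9370 genes had 1 TPM or more.

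**Figure D1:**
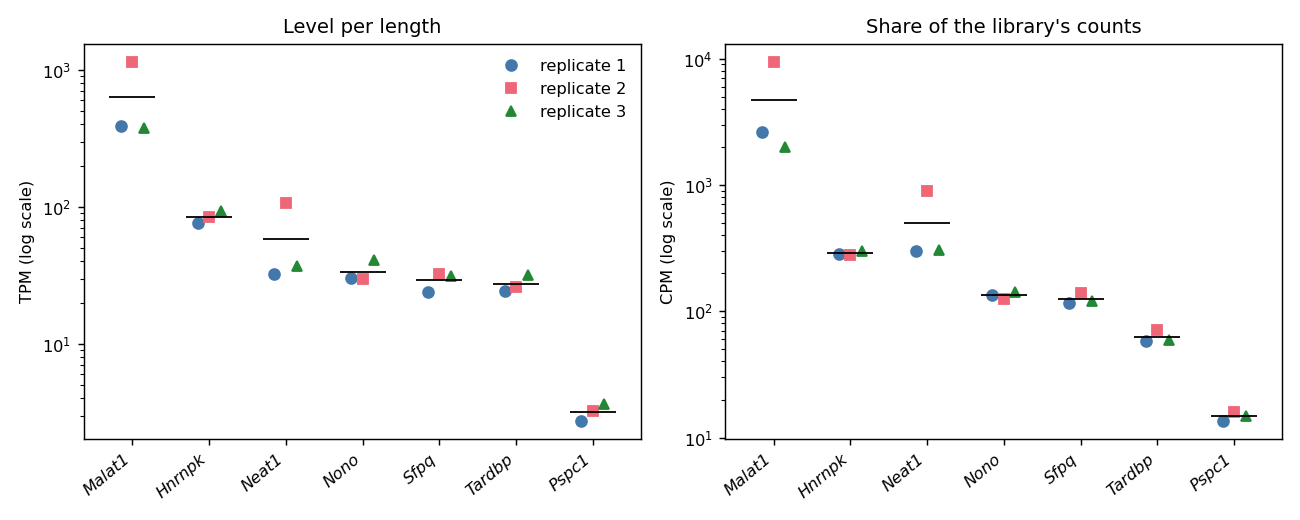
Level of the 7 genes in each library as TPM (left) and as CPM before TMM scaling (right), both on log axes. Points are replicates 1, 2 and 3 and black lines are means over n = 3. Malat1 and Neat1 have replicate 2 far above the other libraries, while the points of the 5 protein genes lie close together.

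The 3 proteins of the dimer family were unequal in mRNA. Nono was above Pspc1 by 10.8-fold, 8.98-fold and 10.96-fold in replicates 1, 2 and 3, and Sfpq was above Pspc1 by 8.43-fold, 9.85-fold and 8.41-fold. Pspc1 was therefore the rarest of the 3 mRNAs in every library, and protein was not measured. Nono over Sfpq gave 1.28, 0.91 and 1.30, so their order changed in replicate 2, and the mean log2 difference of 0.20 ± 0.29 was smaller than its SD. This holds for all transcripts of each gene. On protein-coding transcripts alone the difference was 0.68 ± 0.21. There Nono-201, at 28.92, 28.65 and 39.48 TPM, was above Sfpq-201, at 16.80, 21.05 and 22.23 TPM, in every library. Hnrnpk was above Tardbp by 3.11-fold, 3.28-fold and 2.93-fold.

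Between replicates, Malat1 and Neat1 differed by more than 2-fold, and the 5 protein genes did not. Before TMM scaling, Malat1 had 2638 CPM in replicate 1, 9401 CPM in replicate 2 and 1995 CPM in replicate 3. After it these were 2684, 9471 and 1947 CPM, from which the folds were taken. Replicate 2 was 3.53-fold above replicate 1 and 4.86-fold above replicate 3, and replicate 3 was at 0.73 of replicate 1. Neat1 had 300.1, 902.3 and 307.6 CPM before TMM scaling and 305.3, 909.0 and 300.2 CPM after it. On the scaled values replicate 2 was 2.98-fold above replicate 1 and 3.03-fold above replicate 3, with replicate 3 at 0.98 of replicate 1. In bulk RNA, fewer cells that hold a transcript and less of it per cell cannot be told apart. The SD of log2 CPM was 1.21 for Malat1, the rank 25 from the top of 10348 genes, and 0.92 for Neat1, the rank 66. These SDs rest on replicate 2, without which they were 0.33 for Malat1 and 0.017 for Neat1. The median SD of all these genes was 0.11, and 0.30 was the ninetieth percentile.

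For the protein genes the same SD was 0.17 for Tardbp, 0.16 for Sfpq, 0.12 for Pspc1, 0.07 for Nono and 0.04 for Hnrnpk. The CPM printed for these genes are before TMM scaling, and the SDs and folds are after it. Sfpq had 115.9, 140.6 and 119.9 CPM and Tardbp 58.4, 70.8 and 59.1 CPM in replicates 1, 2 and 3. Each was highest in replicate 2, by 1.20-fold over replicate 1 in both genes. Nono, with 133.3, 125.8 and 142.3 CPM, and Hnrnpk, with 285.8, 278.4 and 302.1 CPM, were lowest in replicate 2. Pspc1 stood at 13.5, 16.1 and 14.8 CPM. The largest difference among these 5 genes was 1.24-fold, for Tardbp in replicate 2 over replicate 3.

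Read against all genes, over 2-fold higher in replicate 2 than in replicate 1 were 139 of 10348 genes, or 1.34%, and 2 of the 7 genes described here. Lower in replicate 2 than in replicate 1 were 15 genes, or 0.145%, and none of the 7. Against replicate 3, replicate 2 was higher for 209 genes, or 2.02%, again with 2 of the 7, and lower for 85 genes, or 0.821%, with none of the 7. Replicate 3 against replicate 1 gave 36 higher genes (0.348%) and 18 lower genes (0.174%), none of them among the 7. Among 196 long noncoding RNA genes with the same count minimum the background was higher, with 12.8% above 2-fold in replicate 2 over replicate 1 and 18.4% in replicate 2 over replicate 3.

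Some other library-wide values moved with Malat1 and Neat1. Malat1 alone took 0.264% of counts in replicate 1, 0.940% in replicate 2 and 0.200% in replicate 3. All other long noncoding RNA genes except Neat1 took 0.424, 0.685 and 0.508%. Transcripts annotated as retaining an intron took 1.51, 2.12 and 1.56% of the counts of protein-coding genes, again highest in replicate 2. The 4 neutrophil markers summed to 25.7, 42.7 and 29.9 TPM, nearly all of it S100a8 (9.60, 14.9 and 12.4 TPM) and S100a9 (15.9, 27.4 and 17.4 TPM), while Ly6g, which defines neutrophils, had 0, 2 and 0 counts. The sums of T cell, B cell and mast cell markers were also highest in replicate 2, at no more than 0.18 TPM. On TPM those of the remaining marker sets were not: stromal and endothelial markers summed to 0.37, 0.42 and 0.63 TPM, and erythroid markers to 0.02, 0 and 0 TPM. By counts, the stromal and endothelial markers Pecam1 (51, 75 and 39), Col1a1 (6, 16 and 2) and Col3a1 (2, 3 and 0) were highest in replicate 2. Cdh5 (31, 19 and 17) was not, and Pdgfra had 0, so the order of this set depends on the measure. The part of these values in the levels of Malat1 and Neat1 was not tested.

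**Figure D2:**
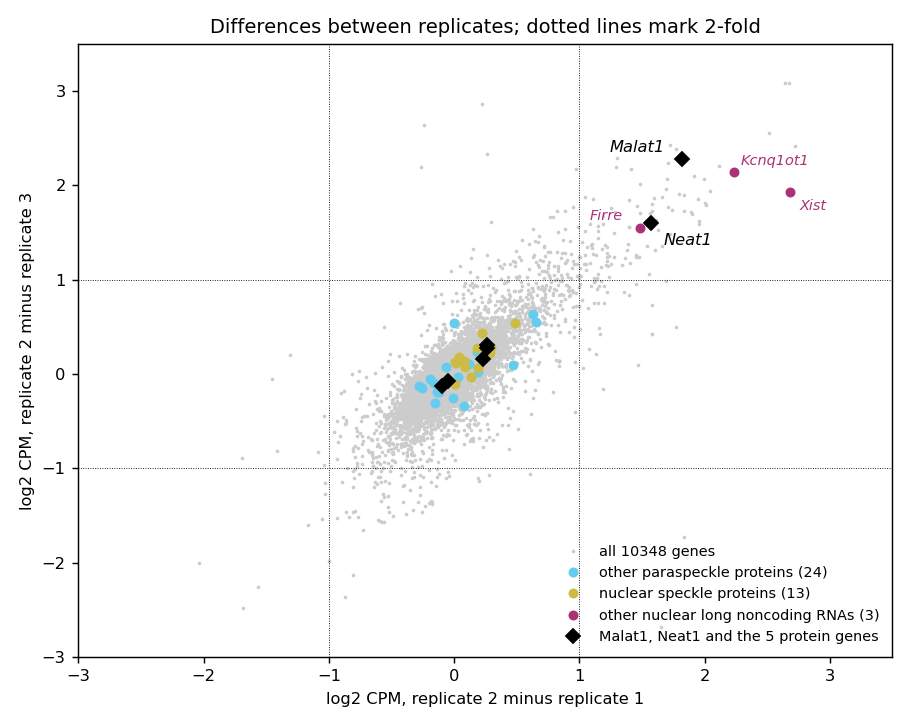
Each point is a gene with a mean of at least 100 counts; the x axis gives the log2 CPM difference of replicate 2 minus replicate 1 and the y axis that of replicate 2 minus replicate 3, with dotted lines at 2-fold and 7 genes outside the axes. Malat1 and Neat1 lie at the upper right with Xist, Kcnq1ot1 and Firre, while the 5 protein genes, the other paraspeckle proteins and the nuclear speckle proteins lie inside the dotted lines.

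Among 10 other nuclear long noncoding RNAs, 3 had the count minimum, and all 3 were over 2-fold higher in replicate 2 than in both other libraries. The share over all genes tested was 1.34% against replicate 1 and 2.02% against replicate 3. Over 196 long noncoding RNA genes it was 12.8% and 18.4%. Xist, the RNA that coats and silences an X chromosome, had 2463, 13159 and 3155 counts in replicates 1, 2 and 3, which is 6.43-fold higher in replicate 2 than in replicate 1 and 3.82-fold higher than in replicate 3. Kcnq1ot1, an RNA of an imprinted domain, had 315, 1237 and 256 counts, 4.70-fold and 4.40-fold higher. Firre, an X-linked RNA of the nucleus, had 312, 728 and 226 counts, 2.80-fold and 2.93-fold higher. The median log2 difference of these 3 genes was 2.23 for replicate 2 over replicate 1 and 1.93 over replicate 3, beside -0.02 and -0.02 over all genes tested. The other 7 RNAs of the list (Tsix, Miat, Meg3, Rian, Mirg, Airn and Snhg14) were under the count minimum and, like Kcnq1ot1, below 1 TPM in all libraries.

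The 5 genes whose pattern over the 3 libraries was nearest to that of Malat1, by Euclidean distance between deviations of log2 CPM from each gene's mean, were Gm49759 (distance 0.08), Gm45223 (0.11), 9430034N14Rik (0.15), Nes (0.17) and Gm45222 (0.20). Gm45223 and Gm45222 lie within introns of Picalm and 9430034N14Rik within an intron of Tor1aip1, while Gm49759 overlaps an exon of Pkm, all on the strand of those genes. Nearest to Neat1 were Gm20100 (0.03), Firre (0.06), Gm37589 (0.09), Saa3 (0.10) and Kntc1 (0.10), of which Gm20100 lies in an intron of Rab20 and Gm37589 in an intron of Mbnl1. Each had between 48 and 1013 counts in a library. Neat1 itself ranked 33 in likeness to Malat1, with a distance of 0.49. Replicate 3 was below replicate 1 for Malat1 and level with it for Neat1. Replicate 2 also differed, at 1.37 above the gene's mean log2 CPM for Malat1 and 1.06 for Neat1.

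Neat1 is annotated with a long transcript of 20771 bases in a single exon, Neat1-201, and a short transcript of 3004 bases, Neat1-202 (5842307 to 5845476), that begins at nearly the same base. The long one has 17056 bases in no other transcript and the short one has none, but its 2 exons leave out an intron that the long one keeps. Apart from reads over that splice junction, reads of the short form lie on bases that the long one also holds. Their 3′ ends, which separate both forms, and the related end of Malat1 are shown because the forms differ there in how they are made. The long Neat1 and Malat1 end without a poly(A) tail, at U-rich stretches and an A-rich tract that fold into a triple helix, while the short Neat1 is cleaved and polyadenylated. In the first pair, capitals mark runs of at least 4 T or 4 A, and in the second pair the hexamer AATAAA. The sequences are those of the GENCODE M21 transcripts on mm10, minus strand, 5′ to 3′, at chr19:5824708-5824827, chr19:5795982-5796101, chr19:5842307-5842426 and chr19:5795690-5795809.
Neat1-201, final 120 bases: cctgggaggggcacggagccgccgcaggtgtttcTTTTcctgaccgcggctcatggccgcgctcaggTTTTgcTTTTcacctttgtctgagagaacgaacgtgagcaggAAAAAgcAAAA
Malat1-201, 120 bases ending 292 bases before the annotated end: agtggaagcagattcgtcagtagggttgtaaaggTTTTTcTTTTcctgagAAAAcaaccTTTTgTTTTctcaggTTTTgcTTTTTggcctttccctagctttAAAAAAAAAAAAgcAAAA
Neat1-202, final 120 bases: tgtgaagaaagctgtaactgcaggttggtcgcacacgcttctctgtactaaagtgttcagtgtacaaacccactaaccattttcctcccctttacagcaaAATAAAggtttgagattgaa
Malat1-201, final 120 bases: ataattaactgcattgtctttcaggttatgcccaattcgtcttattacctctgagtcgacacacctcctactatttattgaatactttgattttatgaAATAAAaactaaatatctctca

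Both sequences of the first pair end in A runs that follow T runs, and Malat1-201 has more T runs and a further A run between them. The final 11 bases of Neat1-201, aaaaagcaaaa, occur once in Malat1-201. Searched on the transcript strand, the same 11 bases are in 73 of 30192 long noncoding RNA transcripts of at least 120 bases, or 0.242%. The hexamer AATAAA lies 14 bases before the end of Neat1-202 and 16 bases before the annotated end of Malat1-201, and these letters are not in the last 120 bases of Neat1-201. The last 120 bases of 29.8% of 137364 transcripts hold it.

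By level per length, the short Neat1 exceeded the long one in every library. Neat1-202 stood at 26.1 TPM in replicate 1, 89.5 TPM in replicate 2 and 27.5 TPM in replicate 3, and Neat1-201 at 3.87, 11.51 and 6.01 TPM. The short form was 6.75-fold, 7.77-fold and 4.57-fold above the long one, a mean of 6.37 ± 1.64. The long form thus held 11.95, 10.8 and 16.1% of Neat1 TPM (13.0 ± 2.80%). By counts, which grow with length, Neat1-201 had 8214, 18977 and 7236, or 51.7, 48.3 and 60.9% of the gene's counts. The deposited posterior SDs of these counts, which cover the assignment of reads within a library, were 50.1, 72.2 and 39.95. The alignment-free tables, made from the reads without the alignments, gave 8139, 18803 and 7516 counts for Neat1-201 and a short-to-long ratio of 7.95, 8.97 and 5.20 on TPM, with the same order of the libraries.

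Both forms of Neat1 were higher in replicate 2, and not to the same extent against replicate 3. Neat1-201 was 2.74-fold and Neat1-202 3.16-fold higher in replicate 2 than in replicate 1. Against replicate 3 the difference was 2.37-fold for Neat1-201 and 4.004-fold for Neat1-202. Replicate 3 had the largest share of the long form in both quantifications. Neat1-203 and Neat1-204, short models nested in the long transcript, had at most 169 and 118 counts in a library, and Neat1-204 had 0 counts in the alignment-free tables. The small genes annotated inside Neat1 (Gm27533, Gm27505 and Gm28006) had less than 1 count each in any library, and Gm27702, directly after the 3′ end of Neat1-201, had 0 in the alignment-based tables.

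Of Malat1, the unspliced transcript of 6983 bases, Malat1-201, had 131761, 395642 and 72809 counts, a mean of 95.2% of the gene's counts. The 3 spliced models, Malat1-202 (556 bases), Malat1-203 (485 bases) and Malat1-204 (656 bases), lie wholly within it and have no base of their own. Together they had 5.67, 3.36 and 5.48% of counts, but because they are short they took 51.9, 36.3 and 50.97% of Malat1 TPM. Malat1-201 alone stood at 188.5, 728.6 and 183.4 TPM, so the gene's TPM rests in large part on those few counts. They were divided differently by both quantifications: Malat1-203 had 995, 15 and 904 counts from the alignments and 4666, 7027 and 2148 in the alignment-free tables. Measured on the full-length transcripts alone, Malat1-201 was 48.7-fold, 63.3-fold and 30.5-fold above Neat1-201 in replicates 1, 2 and 3.

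Gm37376, a gene model on the opposite strand inside Malat1 (5801941 to 5802393), had 0, 494 and 0 counts from the alignments and 2504, 6372 and 1040 in the alignment-free tables. Whether the counting used strand is not given in the sources used here. Reads of Malat1 and of this model therefore cannot be told apart.

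**Figure D3:**
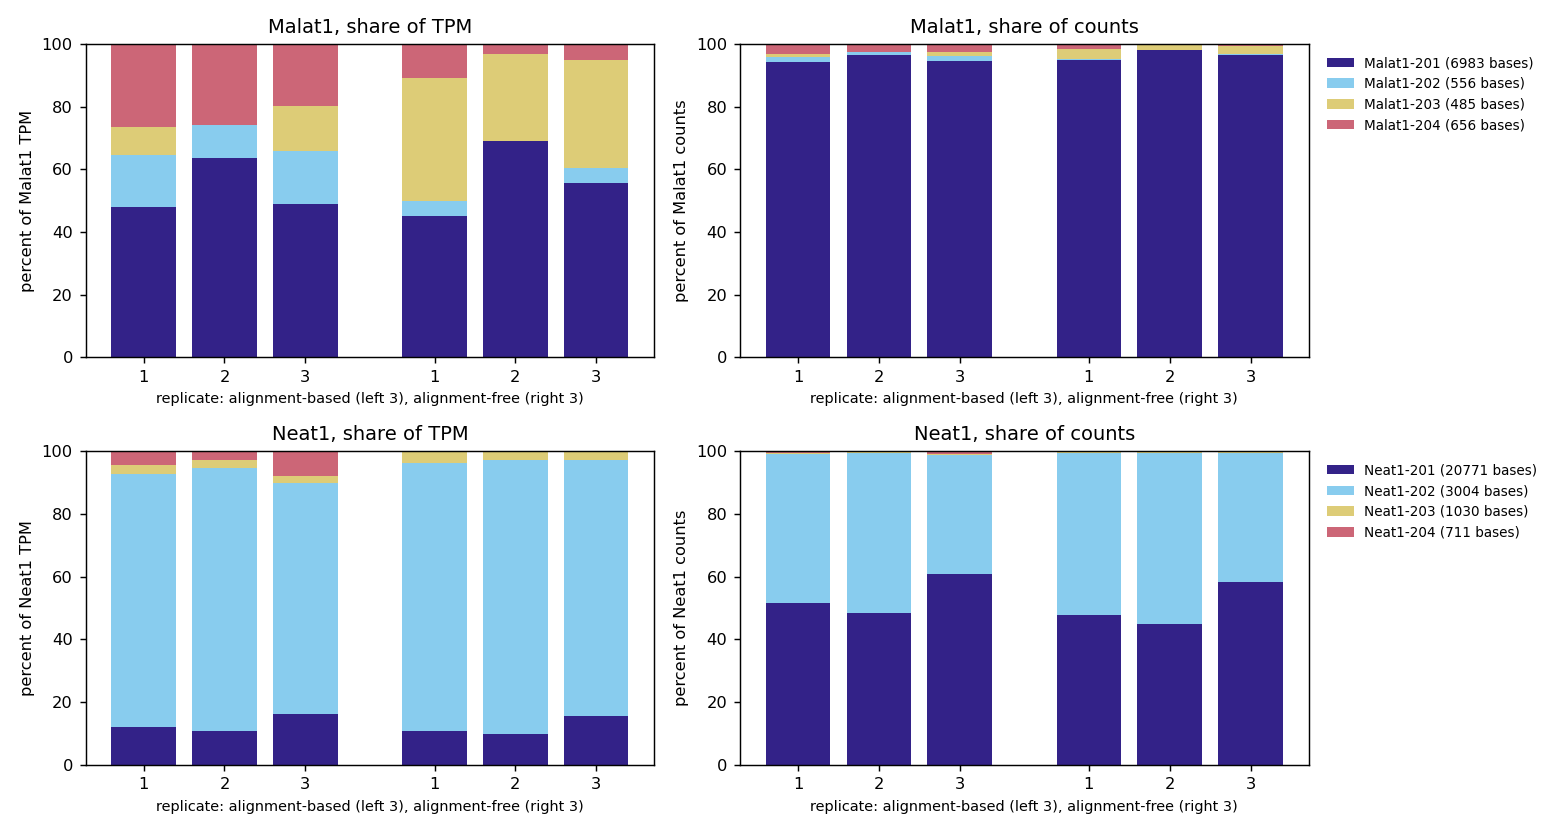
Share of each annotated transcript in the TPM (left) and in the counts (right) of Malat1 (top) and Neat1 (bottom), for replicates 1 to 3 of the alignment-based tables and then of the alignment-free tables. The full-length Malat1-201 has nearly all counts but 48.1 to 63.7% of alignment-based TPM, and Neat1-201 has 10.8 to 16.1% of TPM and 48.3 to 60.9% of counts.

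Of the protein genes, Nono was the simplest at the level of transcripts. Its transcript Nono-201, of 2562 bases, held 94.9, 96.5 and 96.6% of Nono TPM. For Sfpq, the coding transcript Sfpq-201 held 70.4, 64.6 and 70.9% of TPM, and noncoding models called processed transcripts held the rest, 29.6, 35.4 and 29.1%. The main one was Sfpq-206, of 925 bases, with 5.85, 8.45 and 7.80 TPM from 427, 482 and 332 counts. It has 216 bases in no other transcript and ends in an exon 3′ of the last exon of Sfpq-201. Over 4459 protein-coding genes with such a transcript and a mean of at least 1 TPM, the median share of processed transcripts was 1.39%, and the mean Sfpq share of 31.4 ± 3.53% lay above that of 93.5% of them. Gm12940, a noncoding gene on the same strand, overlaps the 3′ part of the Sfpq locus and had 43.3, 44.4 and 24.5 counts, so reads in that part are uncertain.

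Pspc1 divided its TPM between Pspc1-201 (1.00, 1.29 and 1.63 TPM) and Pspc1-202 (1.05, 1.30 and 1.15 TPM), which end in different last exons. Pspc1-204, annotated as a target of nonsense-mediated decay, the pathway that removes mRNAs with an early stop codon, held 20.8, 10.9 and 19.5% of TPM, but from only 23, 11 and 17 counts. The alignment-free tables gave it 42.2, 32.7 and 30.1%.

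Tardbp had the largest share on such decay targets among the 5 genes in the alignment-based tables, 41.4, 35.4 and 43.9% (mean 40.2 ± 4.39%). In the alignment-free tables its share was 39.5, 34.8 and 43.4%, below that of Pspc1 in replicate 1. The median of 2914 protein-coding genes with a transcript of this type was 2.09%, and Tardbp lay above 94.6% of them. TDP-43 is known to bind the 3′ end of its own mRNA and to favour splicing there that lowers the mRNA, a feedback that keeps its level steady. Tardbp-208 and Tardbp-228 made up most of this share, with 386, 221 and 328 counts and 574, 458 and 439 counts. Both have no base of their own, as is the case for 27 of the 30 Tardbp transcripts. The coding Tardbp-204 had 1296, 972 and 941 counts and Tardbp-214 had 366, 338 and 240.

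Tardbp-202 behaved differently from the other main Tardbp transcripts. It is 7477 bases long and ends in an unspliced exon of 6410 bases (148612382 to 148618791 on chromosome 4), inside which 25 of the other 29 models splice. It had 354 counts in replicate 1, 958 in replicate 2 and 186 in replicate 3, or 11.4, 31.1 and 8.13% of Tardbp counts. This was 3.20-fold higher in replicate 2 than in replicate 1 and 4.61-fold higher than in replicate 3, beside 1.20-fold and 1.24-fold for the whole gene. The alignment-free counts were 240, 689 and 146, with the same order of the libraries. Masp2, a gene on the opposite strand whose end overlaps that exon, had 0 counts.

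Hnrnpk had 34 annotated transcripts, 17 of them without a base of their own. Hnrnpk-224 was the main one, with 5663, 5045 and 6105 counts, followed by Hnrnpk-201 with 5046, 3535 and 2585. Coding transcripts held 95.8, 93.1 and 95.98% of its TPM. The division among near-identical models was uncertain: Hnrnpk-232 had 1687, 913 and 1251 counts from the alignments, with posterior SDs of 270.7, 248.0 and 245.3, and 0, 0 and 15 in the alignment-free tables. Rmi1, a gene on the opposite strand that overlaps the start of the locus, had 1207, 1147 and 854 counts, and Mir7-1, a microRNA gene inside Hnrnpk, had 0.

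**Figure D4:**
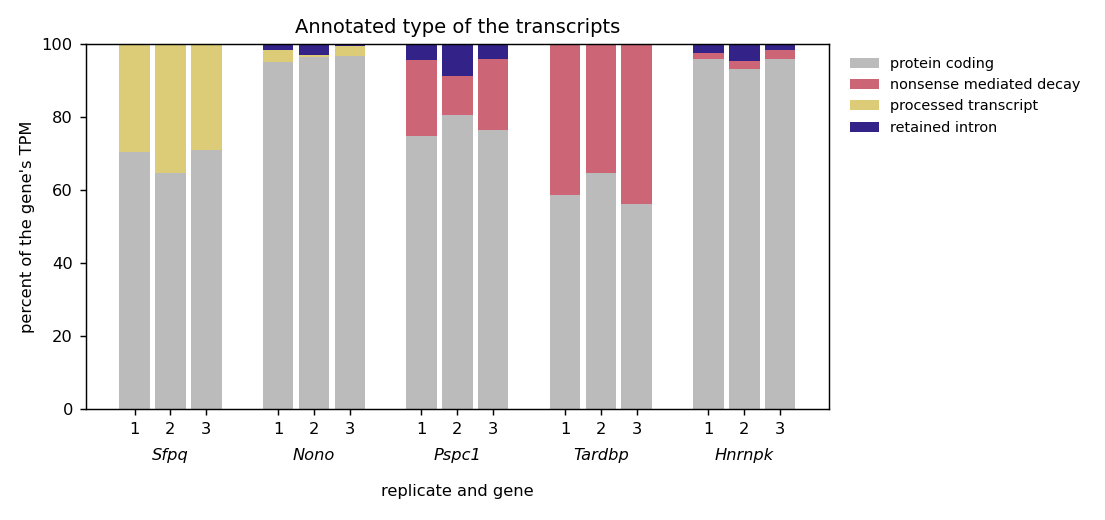
Share of TPM by the annotated type of transcript for the 5 protein genes, with a bar for each of replicates 1 to 3 (alignment-based tables). Decay targets are the second type in Tardbp and Pspc1, processed transcripts in Sfpq, and coding transcripts hold at least 94.9% of Nono and 93.1% of Hnrnpk in every library.

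Transcripts that retain an intron held a share near that of other genes, with a median of 2.33% of TPM over 5880 protein-coding genes that have such a transcript. Sfpq has no annotated transcript of this type and Tardbp had no alignment-based count on its single one. In Nono they held 1.54, 3.10 and 0.68% of TPM (37, 76 and 19 counts), in Hnrnpk 2.43, 4.56 and 1.52% (141, 214 and 70 counts) and in Pspc1 4.38, 8.70 and 4.12% (4, 7 and 3 counts). The share was highest in replicate 2 in all 3 genes, as it was over all protein-coding genes. The mean shares were 1.78 ± 1.22% for Nono, 2.84 ± 1.56% for Hnrnpk and 5.73 ± 2.57% for Pspc1, above those of 43.5, 54.7 and 71.0% of the 5880 genes. Of these genes, 64, or 1.09%, had at least 50% of TPM on this type in every library, and none of the 5 was among them.

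Among transcripts with a mean of at least 100 counts, 23 belonged to the 7 genes. Over 2-fold higher in replicate 2 than in replicate 1 were 6 of these 23, against 4.33% of all 16713 transcripts, and 8 of 23 were higher in replicate 2 than in replicate 3, against 5.74%. Malat1 and Neat1 accounted for 4 and 5 of them. The others were Tardbp-202 and Hnrnpk-221 in both comparisons, and Hnrnpk-213 over replicate 3 only. Hnrnpk-221, named for passing this limit after its values were seen, had 42, 204 and 54 counts, and Hnrnpk-213 had 556, 800 and 42. Hnrnpk-213 has no base of its own. The alignment-free counts were 90, 354 and 80 for Hnrnpk-221 and 1179, 1330 and 425 for Hnrnpk-213. Lower in replicate 2 was Malat1-203 in both comparisons (backgrounds 2.15% against replicate 1 and 3.48% against replicate 3), and its alignment-free counts were highest in replicate 2. Between replicates 3 and 1 no transcript of the 7 genes was over 2-fold higher in replicate 3 (background 2.3%), and Hnrnpk-213 was lower (background 2.26%).

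**Figure D5:**
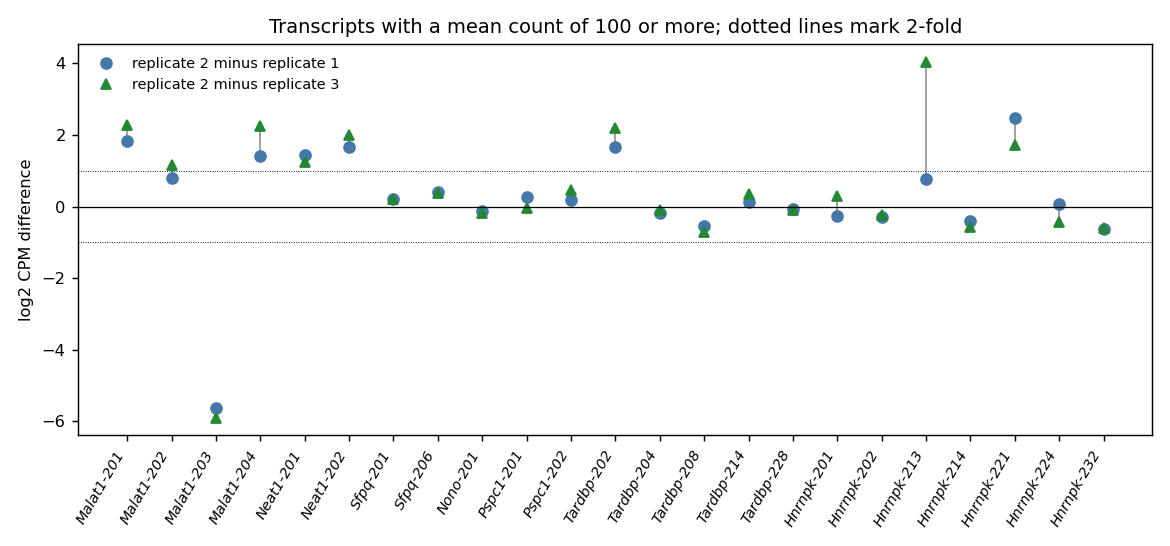
Log2 CPM difference of replicate 2 minus replicate 1 (circles) and minus replicate 3 (triangles) for the 23 transcripts of the 7 genes with a mean of at least 100 counts; dotted lines mark 2-fold. Both forms of Neat1, Malat1-201, Malat1-204, Tardbp-202 and Hnrnpk-221 lie above the upper line in both comparisons, and Malat1-203 lies far below.

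Genes for other proteins of the paraspeckle were mostly expressed. Of 25 listed genes, 22 were at 1 TPM or more in every library and 24 had the count minimum. None of the 24 was over 2-fold apart between any pair of libraries. Over all genes the share past this limit was 0.145 to 2.02%, depending on the pair and direction, so a count of 0 is near the background in a list of this size. Their median log2 difference was 0.02 for replicate 2 over replicate 1 and -0.01 over replicate 3, beside -0.02 and -0.02 over all genes. Their median SD of log2 CPM was 0.13, against 0.11 over all genes, and Hnrnph1 (0.37), Rbm4b (0.35) and Cirbp (0.31), named after their values were seen, lay above the ninetieth percentile. The highest were Hnrnpf, whose protein belongs to the family that binds G-rich RNA, at 103.1 ± 20.8 TPM, the cold-inducible RNA-binding protein gene Rbm3 at 85.2 ± 12.7 TPM, Ubap2l at 47.9 ± 10.6 TPM and Ewsr1, for an RNA-binding protein, at 47.1 ± 11.0 TPM. Below 1 TPM in all libraries were Ss18l1, at 0.82 ± 0.14 TPM, and Celf6, with 1, 0 and 0 counts.

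The 7 genes that process the 3′ ends of Neat1 and Malat1 or bind them there were all at 1 TPM or more. Cpsf6, whose protein is part of the cleavage factor that favours the short form of Neat1, was highest at 10.5 ± 1.40 TPM, followed by Pcf11, a cleavage and termination factor, at 9.07 ± 1.98 TPM, Cpsf7, of the same cleavage factor as Cpsf6, at 7.28 ± 0.94 TPM and Ints11, the nuclease of the Integrator complex, at 4.35 ± 0.77 TPM. None was over 2-fold apart between libraries, which is near the background of 0.145 to 2.02%. The median log2 difference was 0.10 for replicate 2 over replicate 1 and 0.16 over replicate 3, beside -0.02 and -0.02 over all genes.

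All 13 nuclear speckle protein genes were at 1 TPM or more, with Srrm2 at 46.4 ± 7.79 TPM and Son at 41.3 ± 7.46 TPM, both for proteins that hold speckles together, and the splicing factors Srsf2 at 40.5 ± 2.80 TPM and U2af2 at 27.0 ± 3.33 TPM. None of the 13 was over 2-fold apart. The same was true of all 19 other hnRNP and KH protein genes, led by Pcbp2 at 141.9 ± 32.5 TPM, Hnrnpa2b1 at 120.4 ± 18.1 TPM, Hnrnpa3 at 113.6 ± 14.3 TPM and Hnrnpu at 70.7 ± 10.01 TPM. Both counts of 0 are near the background of 0.145 to 2.02%. Their median log2 differences were 0.14 (speckle) and 0.09 (hnRNP and KH) for replicate 2 over replicate 1, beside -0.02 over all genes.

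Among the neighbours of Malat1 and Neat1 on chromosome 19, no gene with the count minimum differed between replicates as both RNAs did. Of 11 annotated genes under 10 listed symbols, 9 had the count minimum and none was over 2-fold apart between libraries (background 0.145 to 2.02%), with a median log2 difference of -0.01 for replicate 2 over replicate 1 and -0.05 over replicate 3. Frmd8, upstream of Neat1, had 2646, 2184 and 2034 counts. Among the higher ones were Fam89b at 28.5 ± 5.88 TPM, Ehbp1l1 at 26.9 ± 3.38 TPM and Dpf2 at 14.0 ± 2.81 TPM, and Tigd3 was below 1 TPM in all libraries, with 11, 10 and 5 counts.

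Both quantifications gave nearly the same gene counts for the 7 genes. The log2 ratio of alignment-based over alignment-free CPM, centred on the median gene of each library, lay between -0.11 (Hnrnpk) and 0.06 (Malat1), and none of the 7 was over 2-fold apart, against 0.834% of 10307 genes. Their TPM values were not comparable in the same way, as the classes of genes shared TPM differently. Processed pseudogenes held 17.6 to 51.5% of TPM in the alignment-free tables and 0.164 to 0.218% in the alignment-based ones. The class misc_RNA held 11.35 to 26.3% and 62.9 to 68.6%, and protein-coding genes 6.44 to 10.9% and 23.2 to 30.2%. The part of each class in the lower alignment-free TPM was not tested.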

How the data were processed

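Per the labels, RNA of the cytosolic fraction was sequenced in 3 libraries of a single group. For each library the authors deposited expected counts, TPM, isoform percent, and posterior means, SDs and TPM bounds, once per gene and once per transcript, and alignment-free estimated counts and TPM per transcript. Per the deposited text files the assembly is mm10 and the annotation GENCODE M21. Neither tool versions nor the use of strand is given in the sources used here. The deposited isoform percent and posterior values (a score for precision) are the authors' own.

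Here expected counts were rounded, rows that name no annotated gene (0.186, 0.167 and 0.0395% of counts) were left out, and log2 CPM (prior count 2, TMM, edgeR 4.0.16 in R 4.3.3) was taken for genes and transcripts with a mean count of 100 or more. Alternatives were DESeq2 1.42.0 size factors, library size, other count minimums and pseudocounts, alignment-free values, TPM rescaled over coding and long noncoding genes, and each replicate left out. Python 3.11.15, numpy 2.4.6, pandas 2.3.3 and matplotlib 3.10.9 were used. The steps were tested on simulated data.

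The 7 genes and the gene lists were chosen with earlier results of these data known. Named were the 7 genes, their transcripts with at least 5% of TPM or counts in a library, and of each list the 4 highest, any over 2-fold apart and those below 1 TPM in all libraries; not every transcript or listed gene so selected is printed. The value of 3 counts is a floor for counting error alone: without molecular identifiers, reads can be copies of the same molecule.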

Additional observations from a re-analysis of the deposited data

How the results depend on the processing

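With 3 libraries of a single group, no test between conditions exists, and the differences between replicates are descriptions. No paired analysis was possible because the labels give no second group. Under alternatives other than leaving out a library, the levels, differences and counts gave 57 values within the spread between replicates (for counts of genes, within 1.5 times) and 38 beyond it, and none changed sign. Of the SDs and retained-intron shares of single genes, 33 stayed within and 7 moved, all of these retained-intron shares. The SDs are among the 33, but their limit was the SD itself, so no fall in an SD counts as a move. Their staying within is therefore no test of the SDs. By library size alone the SD of log2 CPM was 0.060 for Hnrnpk, beside 0.037 in the main setting. By alignment-free counts it was 1.17 for Malat1, beside 1.21. The count of 2 members higher in replicate 2, against either other library, was the same under every alternative run.

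Mean TPM moved for all 7 genes. In the alignment-free tables it was 177.1 for Malat1, 17.1 for Neat1, 8.87 for Sfpq, 10.1 for Nono, 1.30 for Pspc1, 9.03 for Tardbp and 37.4 for Hnrnpk. Rescaled over protein-coding and long noncoding genes it was 2499, 229.6, 111.0, 126.5, 12.1, 103.3 and 321.9 in the same order. With each replicate left out in turn, it ranged over 383.0 to 767.9 for Malat1, 34.8 to 71.9 for Neat1, 27.6 to 31.97 for Sfpq, 30.1 to 35.7 for Nono, 2.98 to 3.43 for Pspc1, 25.1 to 28.9 for Tardbp and 80.5 to 89.4 for Hnrnpk.

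The log2 difference of Malat1 over Neat1 was 3.07 on counts, and 3.37 to 3.51 with each replicate left out. The long form held 53.6% of Neat1 counts, and 11.4 to 14.0% of TPM with each replicate left out. Nono over Sfpq was 0.68 on protein-coding transcripts alone (0.11 to 0.37 with a replicate left out). Nono over Pspc1 was 3.04 with a pseudocount of 1, 2.86 alignment-free and 3.65 on coding transcripts (3.30 to 3.44), and Sfpq over Pspc1 was 2.84, 2.70 and 2.97 (3.07 to 3.19).

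With mean counts of at least 20, and at least 1, replicate 2 was above replicate 1 for 539 and 2459 genes and below it for 48 and 439. It was above replicate 3 for 665 and 2883 genes and below it for 184 and 746. Replicate 3 was above replicate 1 for 124 and 854 and below it for 92 and 896. By alignment-free counts, replicate 2 was above replicate 1 for 220 genes, and replicate 3 was below replicate 1 for 28. Genes over 2-fold apart between both quantifications numbered 208 at a mean count of at least 20. Lower minimums add genes with few counts by construction; the cause of the other moves was not tested.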
